A study of Mus musculus with 2 samples.

Results

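The let-7a, let-7c and let-7f microRNAs are each made from 2 genes in the mouse, and the 6 genes concerned are Mirlet7a-1, Mirlet7a-2, Mirlet7c-1, Mirlet7c-2, Mirlet7f-1 and Mirlet7f-2. They were chosen by name, as the let-7 genes whose mature product comes from 2 loci, and all 6 were found among the 2202 listed miRNA genes. The tissue came from the hippocampus, labelled as a layer of it, of B6CASTF1/J males that were 2 months old, with no treatment named. This strain is a first-generation hybrid of the C57BL/6J and CAST/EiJ inbred strains. Small RNA shorter than 30 nt was sequenced from 2 libraries, labelled as biological replicates 1 and 2 of 1 group. Each replicate has its own biosample entry, but both entries cite the same donor record, so whether they are separate animals cannot be told from the labels.

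A let-7 gene is transcribed as a long primary RNA, from which Drosha and then Dicer cut a hairpin and a short duplex. The strand from the 5′ side of the hairpin (5p) is the one usually loaded into Argonaute, where its seed, bases 2 to 8, pairs with target mRNAs. The let-7 family is known for rising as cells differentiate, for repressing growth genes such as Lin28a, Hmga2 and Myc, and for its abundance in mature neurons. LIN28 proteins block the processing of let-7 precursors in stem cells and progenitors. In human cells, most let-7 precursors gain 1 uridine from the enzymes TUT4 and TUT7 before Dicer cuts them, whereas the let-7a-2, let-7c and let-7e precursors do not need it.

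The 5p sequences are shown first because they separate the 6 genes from the rest of the family (RefSeq, GRCm38.p6, written 5′ to 3′, seed in capitals). Both copies of a pair hold the same 5p sequence, so it is printed once.
let-7a-5p: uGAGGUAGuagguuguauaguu
let-7c-5p: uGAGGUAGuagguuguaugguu
let-7f-5p: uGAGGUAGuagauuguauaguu
let-7b-5p: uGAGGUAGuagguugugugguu
let-7d-5p: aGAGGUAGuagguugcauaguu
let-7e-5p: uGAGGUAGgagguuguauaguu
let-7g-5p: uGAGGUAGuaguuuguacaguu
let-7i-5p: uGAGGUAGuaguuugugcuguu
miR-98-5p: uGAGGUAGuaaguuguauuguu
All 9 sequences are 22 nt long and share 1 seed. The let-7a sequence differs from let-7c, let-7e and let-7f at 1 base each, and let-7b differs from let-7c at 1 base. The let-7d, let-7g, let-7i and miR-98 sequences differ from their nearest relatives at 2 bases. Across the listed miRNA genes, the 5p sequence of each of the 6 genes stood on the same strand in exactly 1 other gene, its sister copy. The 5p sequences of Mirlet7b, Mirlet7d, Mirlet7e, Mirlet7g, Mirlet7i and Mir98 stood in no other listed gene on that strand.

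The strand from the 3′ side of the hairpin (3p), usually the discarded one, is where sister copies part (RefSeq, GRCm38.p6, bases 2 to 8 in capitals).
let-7a-1-3p: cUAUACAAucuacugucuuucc
let-7a-2-3p: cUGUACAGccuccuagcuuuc
let-7c-1-3p: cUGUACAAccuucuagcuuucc
let-7c-2-3p: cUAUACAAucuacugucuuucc
let-7f-1-3p: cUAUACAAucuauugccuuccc
let-7f-2-3p: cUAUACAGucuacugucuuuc
Between sister copies the 3p sequences differed at 6 of 21 compared bases for let-7a, at 5 of 22 for let-7c and at 4 of 21 for let-7f. The 3p sequences of Mirlet7a-1 and Mirlet7c-2 were identical, although their 5p sequences are not. Mirlet7a-1 and Mirlet7c-2 therefore have neither mature sequence to themselves among the listed genes, whereas Mirlet7a-2, Mirlet7c-1, Mirlet7f-1 and Mirlet7f-2 each have a 3p sequence found in no other listed gene. The deposited counts are per gene and do not say from which side of the hairpin a read came.

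The whole hairpins show how little of each pair is shared (RefSeq, GRCm38.p6, on the strand of the gene, with the longest run shared by the sister copies in capitals).
Mirlet7a-1: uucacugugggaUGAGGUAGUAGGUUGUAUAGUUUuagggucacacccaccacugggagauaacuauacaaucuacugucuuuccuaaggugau
Mirlet7a-2: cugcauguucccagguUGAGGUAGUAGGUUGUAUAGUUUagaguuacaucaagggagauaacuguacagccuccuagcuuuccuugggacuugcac
Mirlet7c-1: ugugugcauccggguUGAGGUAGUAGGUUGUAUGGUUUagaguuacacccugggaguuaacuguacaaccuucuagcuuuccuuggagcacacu
Mirlet7c-2: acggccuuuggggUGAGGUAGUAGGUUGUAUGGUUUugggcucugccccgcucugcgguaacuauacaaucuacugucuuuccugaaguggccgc
Mirlet7f-1: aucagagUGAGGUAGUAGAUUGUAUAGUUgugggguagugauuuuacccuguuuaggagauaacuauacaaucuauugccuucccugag
Mirlet7f-2: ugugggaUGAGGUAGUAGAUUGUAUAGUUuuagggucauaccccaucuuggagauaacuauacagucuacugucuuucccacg
The shared run was 23 bases in the let-7a and let-7c pairs, 1 base beyond the 5p sequence, and 22 bases in the let-7f pair, the 5p sequence alone. The longest run that Mirlet7a-1 shared with any listed gene was longer still, 26 bases with Mirlet7c-2, across their 3p side. The 5 other let-7 genes shared at most 19 bases with any listed gene.

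The 6 genes lie at 5 places in mm10 (annotation M21). Mirlet7a-1 (ENSMUSG00000065421.3) is on chromosome 13, 48538179 to 48538272, and Mirlet7f-1 (ENSMUSG00000105621.1) on the same strand at 48537829 to 48537917. Both overlap exons of the noncoding gene 6720427I07Rik, which also holds Mirlet7d. Mirlet7a-2 (ENSMUSG00000092770.1) is on chromosome 9, 41536716 to 41536811, in introns of the noncoding genes 3110039I08Rik and Gm49317. Mirlet7c-1 (ENSMUSG00000065557.3) is on chromosome 16, 77599657 to 77599750, in an intron of Mir99ahg, and Mirlet7c-2 (ENSMUSG00000065608.1) on chromosome 15, 85706603 to 85706697, overlaps an exon of Lncppara. Mirlet7f-2 (ENSMUSG00000065602.1) is on the X chromosome, 151912346 to 151912428, in an intron of Huwe1, which encodes a ubiquitin ligase and also holds Mir98.

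Replicate 1 held 6441333 reads, 2322520 of them placed on the strand of a miRNA gene, and replicate 2 held 10003856 reads with 3414105 so placed. Levels are given as CPM, the count divided by these placed reads and scaled to 1000000, and a gene at 2 CPM or more in both libraries is called detected. The mature sequences of the let-7 genes and Mir98 are all 21 or 22 nt long, and CPM was not divided by length. As a check of the tissue, neuron marker miRNAs summed to 33052 and 47686 CPM in replicates 1 and 2 with 10 of 12 detected. Mir124a-2 and Mir124a-3, which are among the defining neuron markers, were below 2 CPM. Reads that mapped to several places are in none of these counts, so the level of mature miR-124 was not tested. Mir128-1, Mir128-2, Mir138-1 and Mir138-2 on the neuron list also share a mature sequence with another listed gene. The same limit therefore holds for the neuron sums. The marker lists differ in length (12 genes for neurons, 1 for endothelium), so sums of different cell types are not on 1 scale. Markers of other cells were present too: the sums were 14889 and 12474 CPM for endothelium, 6456 and 6935 CPM for mural cells and 4358 and 2676 CPM for oligodendrocytes. They were 1902 and 1128 CPM for erythrocytes, 633 and 1067 CPM for microglia and leukocytes (2 of 3 detected) and 626 and 839 CPM for choroid plexus. Muscle (55.1 and 24.0 CPM) and liver (52.1 and 40.7 CPM) markers were lowest. In a bulk tissue, fewer cells of a type and less RNA per cell cannot be told apart.

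All 6 genes were detected, against 401 of the 2202 listed genes, and they ranged from 196 to 4112 CPM. Their sum was 7177 CPM in replicate 1, against 6787 CPM in replicate 2, with a mean of 6982 ± 276 CPM (SD, n = 2). They took 0.718% of placed miRNA reads in replicate 1 (Wilson 95% interval 0.707 to 0.729) and 0.679% in replicate 2 (0.670 to 0.687). These intervals and the limits for a count of 0 hold counting error alone, because PCR copies of 1 molecule were not told apart. Each of the 6 lay above the median of the detected genes, which was 86.1 CPM in replicate 1 and 96.1 CPM in replicate 2.

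Mirlet7f-2 was the most abundant of them, with 9906 reads (4265 CPM) in replicate 1 and 13516 reads (3959 CPM) in replicate 2. It ranked 42nd among all listed genes in both libraries and supplied 59.4% and 58.3% of the reads of the 6 genes. Mirlet7c-2 followed with 3270 reads (1408 CPM) in replicate 1 and 5017 reads (1469 CPM) in replicate 2. Mirlet7f-2 stood above Mirlet7c-2 by 1.51 ± 0.12 on the log2 scale (SD, n = 2). A ratio is called larger than the replicate spread here when it has the same sign in both libraries and its mean log2 exceeds 2 SD, and this one was. No p is given for such ratios, because an exact two-sided sign-flip test on 2 libraries cannot go below 0.5.

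Mirlet7c-1 had 1564 reads (673 CPM) in replicate 1 and 2224 reads (651 CPM) in replicate 2. Mirlet7f-1 had 727 reads (313 CPM) and 984 reads (288 CPM). Mirlet7a-1 had 715 reads (308 CPM) and 809 reads (237 CPM). These values put Mirlet7f-1 and Mirlet7a-1 side by side, with a difference of 0.15 ± 0.18 in log2 (SD, n = 2), which did not exceed the replicate spread. Mirlet7a-2 was the lowest, with 487 reads (210 CPM) in replicate 1 and 620 reads (182 CPM) in replicate 2. The order was the same in both libraries, with Mirlet7f-2 exceeding Mirlet7a-2 20.3-fold in replicate 1 and 21.8-fold in replicate 2.

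**Figure D1:**
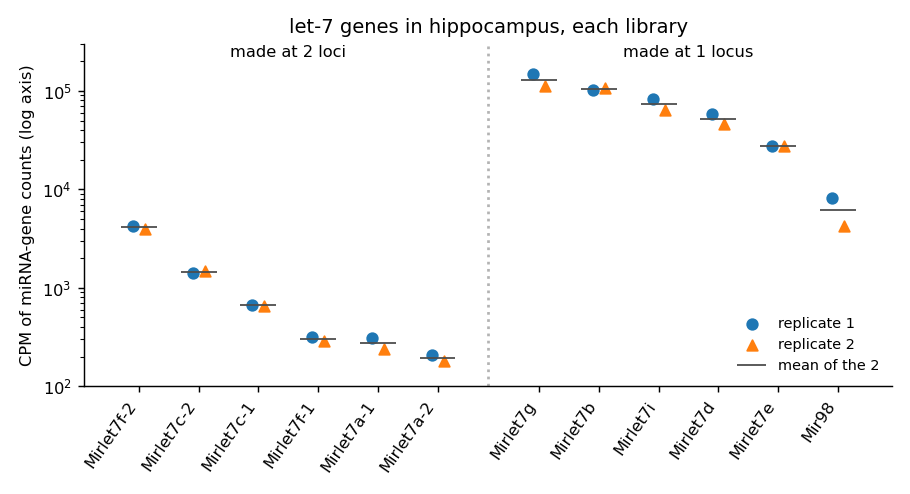
CPM on a log axis of each let-7 gene and Mir98 in replicate 1 (blue circles) and replicate 2 (orange triangles), with the mean of the 2 libraries as a bar. The 6 genes made at 2 loci lie between 182 and 4265 CPM, and the 6 genes made at 1 locus lie between 4228 CPM (Mir98, replicate 2) and 147761 CPM (Mirlet7g, replicate 1).

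The copies of a pair encode the same 5p microRNA, and a read of that sequence alone matches both copies. Reads that mapped to several places are in none of these counts. The reads placed on each copy were compared within a library. The splits describe those placed reads, not the share of each copy in the mature 5p microRNA. The let-7a pair was the most even. Mirlet7a-1 gave 59.5% of the pair's reads in replicate 1 (Wilson 95% interval 56.7 to 62.2) and 56.6% in replicate 2 (54.0 to 59.2). The exact binomial test of an equal split, two-sided and adjusted over 6 tests by Benjamini-Hochberg, gave p = 6.17e-11 in replicate 1 and 6.35e-07 in replicate 2. Mirlet7a-1 exceeded Mirlet7a-2 by 0.47 ± 0.12 in log2 (SD, n = 2), which is larger than the replicate spread.

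The let-7c pair leaned the other way. Mirlet7c-2, the copy beside Mirlet7b, exceeded Mirlet7c-1, the copy beside Mir99a, 2.09-fold in replicate 1 and 2.26-fold in replicate 2. Mirlet7c-1 gave 32.4% of the pair's reads in replicate 1 (31.0 to 33.7) and 30.7% in replicate 2 (29.7 to 31.8), with adjusted exact binomial p = 1.78e-135 and 5.63e-242.

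The let-7f pair was the most uneven. Mirlet7f-2 on the X chromosome exceeded Mirlet7f-1 on chromosome 13 13.6-fold in replicate 1 and 13.7-fold in replicate 2. Mirlet7f-1 gave 6.84% of the pair's reads in replicate 1 (6.37 to 7.33) and 6.79% in replicate 2 (6.39 to 7.21), and both intervals lie far below an equal split. These tests are on the placed reads of 1 library each, hold counting error alone and do not compare conditions. Their p-values do not measure a difference in output between the copies. An equal split need not be what equal output of the copies would give. Mirlet7a-1 and Mirlet7c-2 have no mature sequence to themselves, and their sister copies have a 3p sequence of their own. The bases after the 5p sequence also differ in each pair. They are UUAG in Mirlet7a-1 and UAGA in Mirlet7a-2, and UAGA in Mirlet7c-1 and UUGG in Mirlet7c-2. In the let-7f pair they are GUGG in Mirlet7f-1 and UUAG in Mirlet7f-2. A read that runs past the shared bases can thus match 1 copy alone, and the part this has in the splits was not tested. Summed over both copies, the placed reads stood at 4413 ± 234 CPM for let-7f, 2101 ± 28.0 CPM for let-7c and 468 ± 70.0 CPM for let-7a (SD, n = 2). These sums leave out reads that mapped to several places, so the order of the 3 mature microRNAs was not tested.

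**Figure D2:**
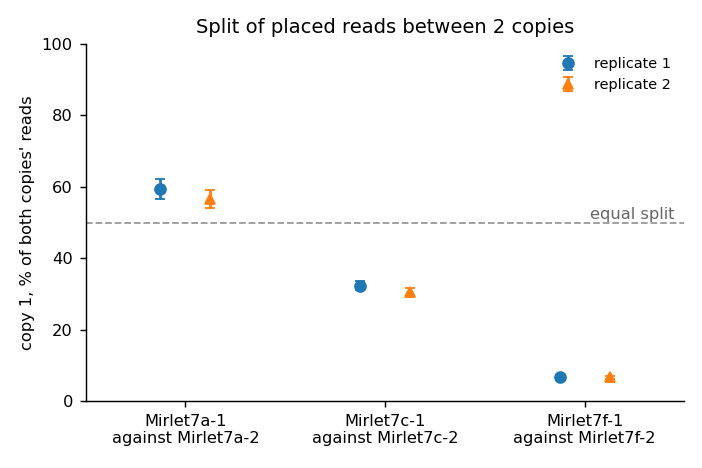
Share (%) of the reads of both copies that was placed on copy 1, for let-7a, let-7c and let-7f, in replicate 1 (blue circles) and replicate 2 (orange triangles), with Wilson 95% intervals and a dashed line at an equal split. Copy 1 holds 56.6% or more of the let-7a reads, 32.4% or less of the let-7c reads and 6.84% or less of the let-7f reads.

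Against the 5 other genes whose symbol begins with Mirlet7, the genes made at 2 loci were low. Per gene they averaged 1196 CPM in replicate 1 and 1131 CPM in replicate 2, whereas Mirlet7b, Mirlet7d, Mirlet7e, Mirlet7g and Mirlet7i averaged 83489 and 71850 CPM. The ratio was -6.06 ± 0.10 in log2 (SD, n = 2), and it was larger than the replicate spread. It was -7.08 without Mirlet7f-2 and -7.24 between the medians over genes. These groups did not overlap. The highest of the 6, Mirlet7f-2, had 4265 and 3959 CPM, and the lowest of the 5 others, Mirlet7e, had 27648 and 27624 CPM. The gap depends on which relatives are counted. Mir98, a family member outside both groups, had 8260 and 4228 CPM. With Mir98 counted among the others, the log2 ratio was -5.82 ± 0.10 (SD, n = 2). Mir7k, whose annotated mature sequence has the same seed, had 1.29 and 0 CPM, below all 6. Mirlet7a-1 lay 89.8-fold below Mirlet7e in replicate 1 and 117-fold below it in replicate 2. Their 5p sequences differ at 1 base. Both mature sequences of Mirlet7a-1 also stand in other listed genes on the same strand, and neither mature sequence of Mirlet7e does. The 6 genes supplied 1.69% of the reads placed on let-7 genes in replicate 1 (1.66 to 1.72) and 1.85% in replicate 2 (1.83 to 1.88).

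These levels describe placed reads. Each read of a library stood once, in a gene or in a class outside the genes, and the class of reads that mapped to several places numbered 2743569 in replicate 1 (42.6% of the library) and 4604517 in replicate 2 (46.0%). The reads placed on the 6 genes numbered 16669 in replicate 1 and 23170 in replicate 2. Multimapping reads thus outnumbered them 165-fold and 199-fold. The deposited tables give the multimapping reads as 1 total, so how many were let-7a, let-7c or let-7f was not tested, and the part that read placement has in the gap within the family was not tested.

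**Figure D3:**
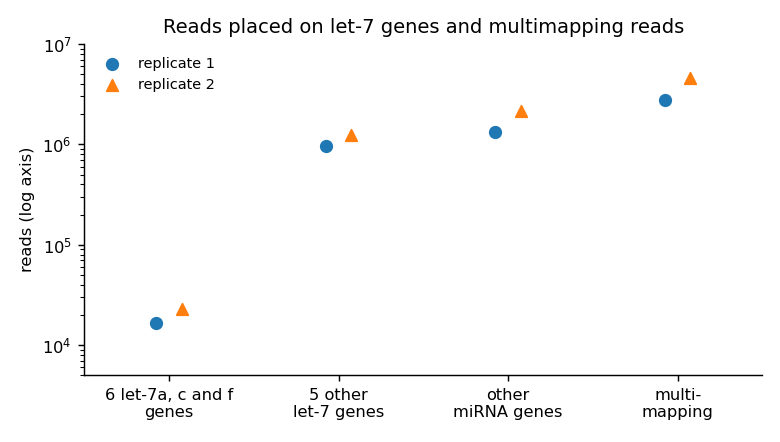
Reads on a log axis in replicate 1 (blue circles) and replicate 2 (orange triangles) that were placed on the 6 let-7a, let-7c and let-7f genes, on the 5 other let-7 genes or on other miRNA genes, and reads that mapped to several places. The 6 genes hold 16669 and 23170 reads, the 5 others 969522 and 1226516, and the multimapping class 2743569 and 4604517.

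The 6 genes were also set beside other genes that share a mature sequence. Of the 1229 genes whose hairpin holds a RefSeq mature sequence of at least 20 nt, 345 have such a sequence that also stands in another listed gene. Of these 345, 50 were detected (14.5%), against 308 of the 884 with none (34.8%). Among detected genes the medians lay the other way, with 104 and 156 CPM in replicates 1 and 2 for those sharing a sequence, against 93.6 and 102 CPM for those that do not. Among the 345, ranked within each library, Mirlet7f-2 was 3rd in replicate 1 and 2nd in replicate 2. Mirlet7c-2 was 6th and Mirlet7c-1 was 11th in both libraries. Mirlet7f-1 was 19th and 18th, Mirlet7a-1 was 20th in both, and Mirlet7a-2 was 22nd and 23rd. These are descriptions across genes, which are not independent replicates.

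Genes of a microRNA cluster can be cut from 1 primary transcript. Each gene was therefore set beside the listed miRNA genes within 10000 bases on its strand. The 5p sequence of each of the 6 genes also stands in its sister copy. Those of the neighbours Mirlet7b, Mirlet7d and Mir98 stand in no other listed gene on that strand. The part that read placement has in the ratios to neighbours was not tested. Mirlet7c-2 had 1408 and 1469 CPM in replicates 1 and 2, and Mirlet7b, 621 bases away, had 101513 and 107896 CPM. The log2 ratio was -6.19 ± 0.02 (SD, n = 2), the most stable of these ratios between the libraries. Mirlet7c-1 had 673 and 651 CPM, and Mir99a, which lies 656 bases from it, had 28187 and 38611 CPM, a log2 ratio of -5.64 ± 0.35. Mirlet7a-2 had 210 and 182 CPM, and Mir100, a relative of Mir99a 5211 bases away, had 4831 and 6502 CPM, a log2 ratio of -4.84 ± 0.45. All 3 ratios were larger than the replicate spread.

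On chromosome 13, Mirlet7a-1 and Mirlet7f-1 lie 261 bases apart and were at similar levels, as given above. Mirlet7d, their neighbour within the same noncoding gene, had 57695 and 46150 CPM. Mirlet7a-1 lay below it by a log2 ratio of -7.58 ± 0.04 and Mirlet7f-1 by -7.42 ± 0.14 (SD, n = 2), both larger than the replicate spread. The X-linked pair was the exception. Mirlet7f-2 had 4265 and 3959 CPM, and Mir98, a let-7 family member 785 bases away, had 8260 and 4228 CPM. Their log2 ratio of -0.52 ± 0.61 did not exceed the replicate spread, and it was Mir98, not Mirlet7f-2, that differed most between the libraries.

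**Figure D4:**
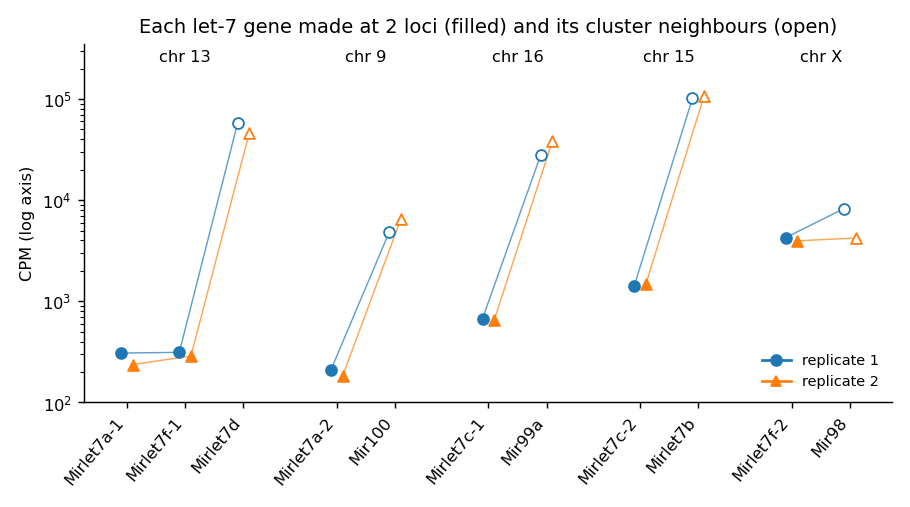
CPM on a log axis of each of the 6 genes (filled symbols) and its neighbours within 10000 bases on the same strand (open symbols), by chromosome, in replicate 1 (blue circles) and replicate 2 (orange triangles). In 4 clusters an open symbol lies far above the filled ones, as for Mirlet7b at 101513 CPM against Mirlet7c-2 at 1408 CPM in replicate 1, and on the X chromosome Mirlet7f-2 and Mir98 are close.

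Between the libraries the 6 genes differed by at most 1.32-fold. By a two-sided exact binomial test on the counts with TMM library sizes and Benjamini-Hochberg adjustment over all detected genes, 3 of the 6 differed beyond counting error, all 3 lower in replicate 2. Of all 401 genes tested, 50.9% differed and 22.7% were lower in replicate 2, and with 6 genes the counts are given as a description. The share of 3 in 6 is near the 50.9% for either direction. Mirlet7a-1 was lower in replicate 2 by a log2 ratio of -0.40 (95% interval -0.55 to -0.26, adjusted exact binomial p = 2.04e-07). Mirlet7a-2 had -0.23 (-0.41 to -0.06, adjusted exact p = 0.0176) and Mirlet7f-2 had -0.13 (-0.17 to -0.10, adjusted exact p = 1.65e-11). The test compares 2 libraries, not conditions, and no condition was compared.

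Mirlet7f-1 had a log2 ratio of -0.14 (-0.28 to -0.0041, adjusted exact p = 0.0811), Mirlet7c-1 of -0.07 (-0.17 to 0.02, adjusted exact p = 0.215) and Mirlet7c-2 of 0.04 (-0.03 to 0.10, adjusted exact p = 0.390), and none of these passed. The median absolute log2 ratio was 0.14 over the 6 genes and 0.33 over all genes tested. Among the relatives, Mirlet7g, Mirlet7i and Mirlet7d had ratios of -0.41, -0.40 and -0.35, Mirlet7e had -0.03, Mirlet7b had 0.06 and Mir98 had -0.99. In size, the ratio of Mirlet7e was smaller than that of each of the 6 genes, and that of Mirlet7b was smaller than those of 5 of them.

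**Figure D5:**
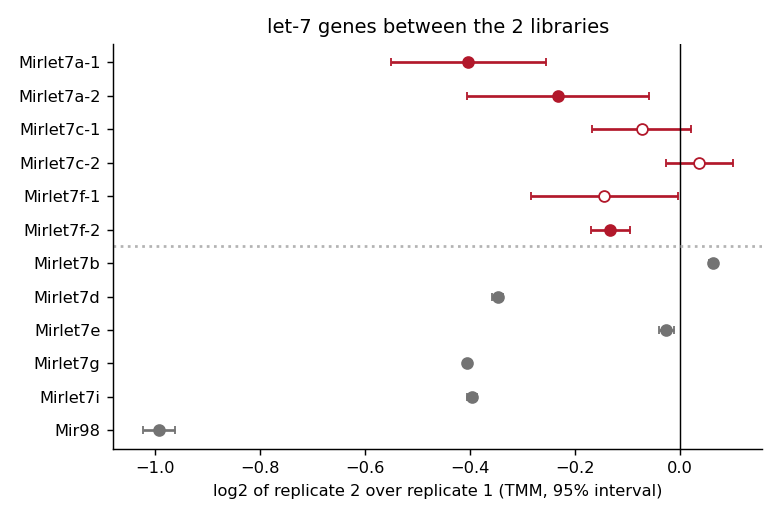
Log2 ratio of replicate 2 over replicate 1 with TMM library sizes for the 6 genes made at 2 loci (red, above the dotted line) and the other family genes (grey), with exact 95% intervals for counting error and filled points where the adjusted p passed 0.05. The 6 genes lie between -0.40 and 0.04, and Mir98 lies at -0.99.

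The counts of Mirlet7f-1 rest on the strand of the reads. The annotated miRNA gene Gm24111 covers the same place on the opposite strand, and with both strands counted together Mirlet7f-1 was left with 0 reads in both libraries, against 727 and 984 on its own strand. Gm24111 itself had 2 and 0 reads on its strand, which is under the limit of 3 counts that a count of 0 allows. Mirlet7e, which Gm25927 covers on the opposite strand, was likewise left with 0 reads. The other 5 of the 6 genes had the same counts with and without strand, and 0 reads on the opposite strand.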

How the data were processed

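MicroRNA-seq counts of 2 hippocampus libraries (1 group) were analysed. The authors deposited, for each library, 3 columns of raw whole-number counts of reads per miRNA gene. The columns carry no names, and their roles (unstranded, same strand, reverse strand) were read from their sums. Per the deposited file descriptions the build was mm10 and the annotation M21. The aligner, the counter and their settings are not given in the sources used here. The same-strand counts were used. The 4 rows that name no gene were left out of totals and tests, and in replicates 1 and 2 they held 16.2% and 15.1% unmapped, 42.6% and 46.0% multimapping, 5.16% and 4.70% no-feature and 0% ambiguous reads.

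CPM and Wilson intervals were computed with SciPy 1.17.1 (Python 3.11.15). TMM factors (0.991 and 1.01) came from edgeR 4.0.16 and alternative size factors from DESeq2 1.42.0 (R 4.3.3). An edgeR quasi-likelihood fit has no residual degrees of freedom with 1 library on each side. The replicates were therefore compared by the exact binomial test. That test was run on simulated counts with counting error alone, so the simulation does not cover other variation between libraries. Log2 ratios between replicates had 0.5 added to each count. The genes named are the 6, the other genes whose symbol begins with Mirlet7, genes within 10000 bases on the same strand, genes with the same seed and those sharing the longest hairpin run. Gm24111 and Gm25927 were singled out after their values were seen. The members and lists were chosen with earlier results of these data known. Sequences are from RefSeq (GRCm38.p6), and the 12 let-7 family hairpins equalled those of M21. With 2 samples of 1 group that may share a donor, p-values of the replicate test measure only the difference between these libraries, which may be technical, and those of the copy pairs only the split of reads within 1 library.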

Additional observations from a re-analysis of the deposited data

How the results depend on the processing

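Of 83 alternatives, 81 counted as unchanged, and in the other 2 the summed level of the 6 genes moved by more than 1 SD. Unchanged meant the same direction and side of the threshold or, for the summed level, within 1 SD of the reported value. A level or ratio without 1 replicate had to stay within 1 SD and keep its sign. With 2 libraries, each always lies within 1 SD of their mean, so those cases could fail only by a change of sign. The ratio of Mirlet7a-1 to Mirlet7f-1 and its inverse were both counted. That sum was 6982 CPM, and it was 2452 with all reads of the library as the total and 12304 CPM with the 5 most abundant genes left out of the total; both follow from the total used, and ratios between genes do not change with it. Without 1 replicate the sum was 6787 to 7177 CPM, and the log2 ratio to the 5 other let-7 genes was -6.13 to -5.99. Leaving out 1 of the 6 genes gave -7.08 (without Mirlet7f-2) to -5.84, which moves the fold by over 1.5 times for Mirlet7f-2. The median over genes gave -7.24. Without 1 replicate the shares of copy 1 were 56.6% to 59.5% for let-7a, 30.7% to 32.4% for let-7c and 6.79% to 6.84% for let-7f. The log2 ratios to the nearest neighbour were -5.16 to -4.53 for Mirlet7a-2, -5.89 to -5.39 for Mirlet7c-1, -6.20 to -6.17 for Mirlet7c-2, -0.28 to -0.02 for Mirlet7a-1 over Mirlet7f-1, 0.02 to 0.28 for the inverse and -0.95 to -0.09 for Mirlet7f-2. With both strands counted together the let-7f share of copy 1 was 0%, and no ratio of Mirlet7a-1 to Mirlet7f-1 could be formed. In each of the 4 alternatives to the replicate test 3 of the 6 genes were called, with Mirlet7f-1 untested when both strands were counted together. Ratios per base of hairpin, and Mir98 counted with the other let-7 genes, were chosen after seeing the data. Leaving out a replicate gives no value for the replicate test. No paired analysis was possible because there is only 1 group.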

Other observations

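The seed of the 6 genes also opens the mature sequences annotated for Mir7k (let-7k) and Mir1961, both on chromosome 5. Mir7k had 3 reads in replicate 1 and 0 in replicate 2, and Mir1961 had 0 in both, where a count of 0 allows up to 1.29 CPM in replicate 1, and up to 0.879 CPM in replicate 2. Neither reached 2 CPM in both libraries.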
